A study of Homo sapiens with 20 samples.

Results

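The D-type cyclins, the cyclin-dependent kinases CDK4 and CDK6 and the inhibitors of these kinases were followed through RNA sequencing of NTERT keratinocytes. NTERT is an immortalized human keratinocyte line that expresses telomerase. The genes were taken by name: CCND1, CCND2, CCND3, CDK4, CDK6, CDKN1A, CDKN1B, CDKN1C, CDKN2A and CDKN2B, 10 of the 57500 genes counted. The 20 libraries fell into 4 groups of 5, which were WT and GCN2KO cells, each left unwounded or harvested 6 h after high-density wounding (HDW). In HDW, parallel scratches are drawn across a confluent sheet so that many cells lie near a wound edge. GCN2KO cells were a pool edited by CRISPR/CAS9 at EIF2AK4, the gene of the eIF2α kinase GCN2, and not a clone, WT cells had received a control sgRNA, and all 4 groups had been brought to early differentiation before the experiment. The 10 genes were expressed above the filter on low counts in every comparison and so all 10 were tested in each.

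D-type cyclins carry growth signals into the cell cycle. They bind CDK4 or CDK6, and the complexes phosphorylate RB, which then releases E2F factors to transcribe genes for DNA replication. CIP/KIP inhibitors, p21 from CDKN1A, p27 from CDKN1B and p57 from CDKN1C, bind cyclin-CDK complexes of several kinds, whereas the INK4 inhibitors p16INK4a from CDKN2A and p15INK4b from CDKN2B bind CDK4 and CDK6 alone. In epidermis, basal keratinocytes cycle and differentiating ones leave the cycle, and D cyclin mRNAs and p21 respond to growth factors, attachment and stress. GCN2 is activated when amino acids run short and lowers general translation while favouring that of factors such as ATF4.

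EIF2AK4 was measured first as the check of the knockout. Its normalized read count, the count divided by the TMM-scaled library size, was 4152 to 4555 in WT unwounded and 3980.2 to 4303 in WT HDW libraries. It was 806 to 962 in GCN2KO unwounded and 809.8 to 951 in GCN2KO HDW libraries, so that the genotypes did not overlap. The log2 fold changes were thus -2.28 without wounding and -2.27 after HDW (edgeR, adjusted p = 4.29e-13 and 3.26e-12). Libraries held 14083504 to 34611570 counts, and the biological coefficient of variation was 0.0587 to 0.108 over the 4 comparisons. KRT5, KRT14 and TP63 were detected in every library, whereas TYR and SOX10 of the melanocyte list had no count in any. In the fibroblast list COL3A1 stayed at or below 1.99 normalized counts. COL1A1 of that list was at 727 to 968 in WT and 600 to 857 in GCN2KO libraries, and DCN at 12.6 to 79.6 over all libraries. Within the keratinocyte list, 3 of 11 genes passed as higher and 6 as lower in unwounded GCN2KO cells, beside 33.4% and 33.1% of all genes. Members of like kind did not move together. Of the differentiation genes, IVL, a cornified envelope precursor, had a log2 fold change of 1.83 and KRT1, a suprabasal keratin, one of -1.06. KRT1 was barely detected, at 14.3 to 31.8 normalized counts in unwounded WT and 7.60 to 13.6 in unwounded GCN2KO libraries. KRT10, also a suprabasal keratin, did not pass (0.23, edgeR, adjusted p = 0.144). Of the basal keratins, KRT5 had one of 0.50 and KRT14 one of -0.85. MITF of the melanocyte list was also higher in GCN2KO libraries, at 246 to 565 against 70.0 to 143 normalized counts in WT. The summed level of its 7 genes was 130.4 to 209 in WT and 351 to 644 in GCN2KO libraries, that of the 7 fibroblast genes 758 to 1043 and 669 to 920.1, and that of 6 endothelial and immune genes 45.3 to 86.1 and 81.9 to 123. A single gene was the largest part of each sum, MITF, COL1A1 and CD68. PMEL and MLANA of the melanocyte list did not pass without wounding (edgeR, adjusted p = 0.0684 and 0.118). After HDW PMEL gave a log2 fold change of 0.02 (adjusted p = 0.931) and MLANA one of 0.79 (adjusted p = 0.0021). How far these marker shifts bear on the cyclin and inhibitor transcripts was not tested. In sheets such as these, fewer cells making a transcript and less of it per cell cannot be told apart.

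Unwounded GCN2KO libraries were the least uniform. The coefficient of variation of all 10 genes was greater there than in unwounded WT libraries, with a median of 16.1% against 4.88%. Replicates 3 and 5 deviated from their group mean together over 16536 genes (r = 0.119, where every other pair within a group lay at or below 0.00545). The values of the 10 genes that use unwounded GCN2KO cells were therefore also computed without both of these libraries, a choice made after the data were seen, and the pathway lists were not.

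Upstream sequences of the kinases and of CDKN1A are shown first because CDK4 and CDKN1A had the largest differences between the genotypes and CDK6 is the kinase set against CDK4. RefSeq promoter windows on GRCh38.p14 were at hand for 7 of the 10 genes, in 11 windows, and not for CCND1, CCND2 and CDKN1C. Each sequence is the 250 bases before a transcription start, 5′ to 3′ on the strand of the gene. The windows are chr12:57752311-57752560 on the minus strand for CDK4, chr7:92836574-92836823 on the minus strand for CDK6 and chr6:36678464-36678713 on the plus strand for CDKN1A. Capitals mark CACGTG, the E-box read by MYC and related factors, and GGGCGG or its complement, the GC box read by SP1.
CDK4: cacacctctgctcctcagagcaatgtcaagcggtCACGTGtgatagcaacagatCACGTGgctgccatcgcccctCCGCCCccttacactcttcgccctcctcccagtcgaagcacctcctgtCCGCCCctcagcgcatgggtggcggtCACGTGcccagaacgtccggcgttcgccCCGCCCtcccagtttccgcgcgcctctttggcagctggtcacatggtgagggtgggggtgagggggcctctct
CDK6: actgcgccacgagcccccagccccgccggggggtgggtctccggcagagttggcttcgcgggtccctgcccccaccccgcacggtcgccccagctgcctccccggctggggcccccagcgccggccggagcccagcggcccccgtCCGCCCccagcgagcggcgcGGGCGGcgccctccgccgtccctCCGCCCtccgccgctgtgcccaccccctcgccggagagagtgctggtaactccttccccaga
CDKN1A: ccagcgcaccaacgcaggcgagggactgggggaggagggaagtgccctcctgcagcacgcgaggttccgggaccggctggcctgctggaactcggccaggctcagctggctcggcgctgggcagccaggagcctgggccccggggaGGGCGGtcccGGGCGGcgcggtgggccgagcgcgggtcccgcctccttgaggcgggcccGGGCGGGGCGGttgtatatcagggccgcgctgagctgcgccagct
The CDK4 window held 3 E-boxes and 3 GC boxes. CDK6 had no E-box and 3 GC boxes in the window shown, which ends at the annotated start of the gene, and neither in a second window at chr7:92833960-92834209. CDKN1A had no E-box and 4 GC boxes, the last pair of which share a base. CACGTG occurred in 1 of the 11 windows, that of CDK4, and in 6.34% of all 35116 windows of the same length, while GGGCGG occurred in 8 of 11 and in 42.6% of all. TGATGNAA, a core read by ATF4 with a C/EBP partner, TGACGTCA, the cyclic AMP response element, TGACTCA, the AP-1 site, and TATAAA were each found in 0 of the 11 windows and in 3.14%, 1.65%, 4.2% and 10.7% of all windows. Both strands were searched, and a match describes letters and not a bound site.

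The first comparison set GCN2KO against WT cells without wounding. In GCN2KO cells the cyclins and kinases were lower and the inhibitors CDKN1A, CDKN1B, CDKN2A and CDKN2B were higher. By edgeR 9 of the 10 genes passed the test (adjusted p of at most 0.05), 4 higher and 5 lower, where 66.5% of all 15348 genes tested passed, 33.4% higher and 33.1% lower. A DE gene had in addition to differ by 1 or more on the log2 scale, up or down. This held for CDK4, lower, and CDKN1A, higher, 2 of 10 beside 16.4% of all genes, 8.21% higher and 8.22% lower. In 7 of the 10 the libraries of the genotypes did not overlap, a state found in 53.3% of all genes. The median log2 fold change was -0.24 over the 10 genes and 0.00 over all genes.

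**Figure D1:**
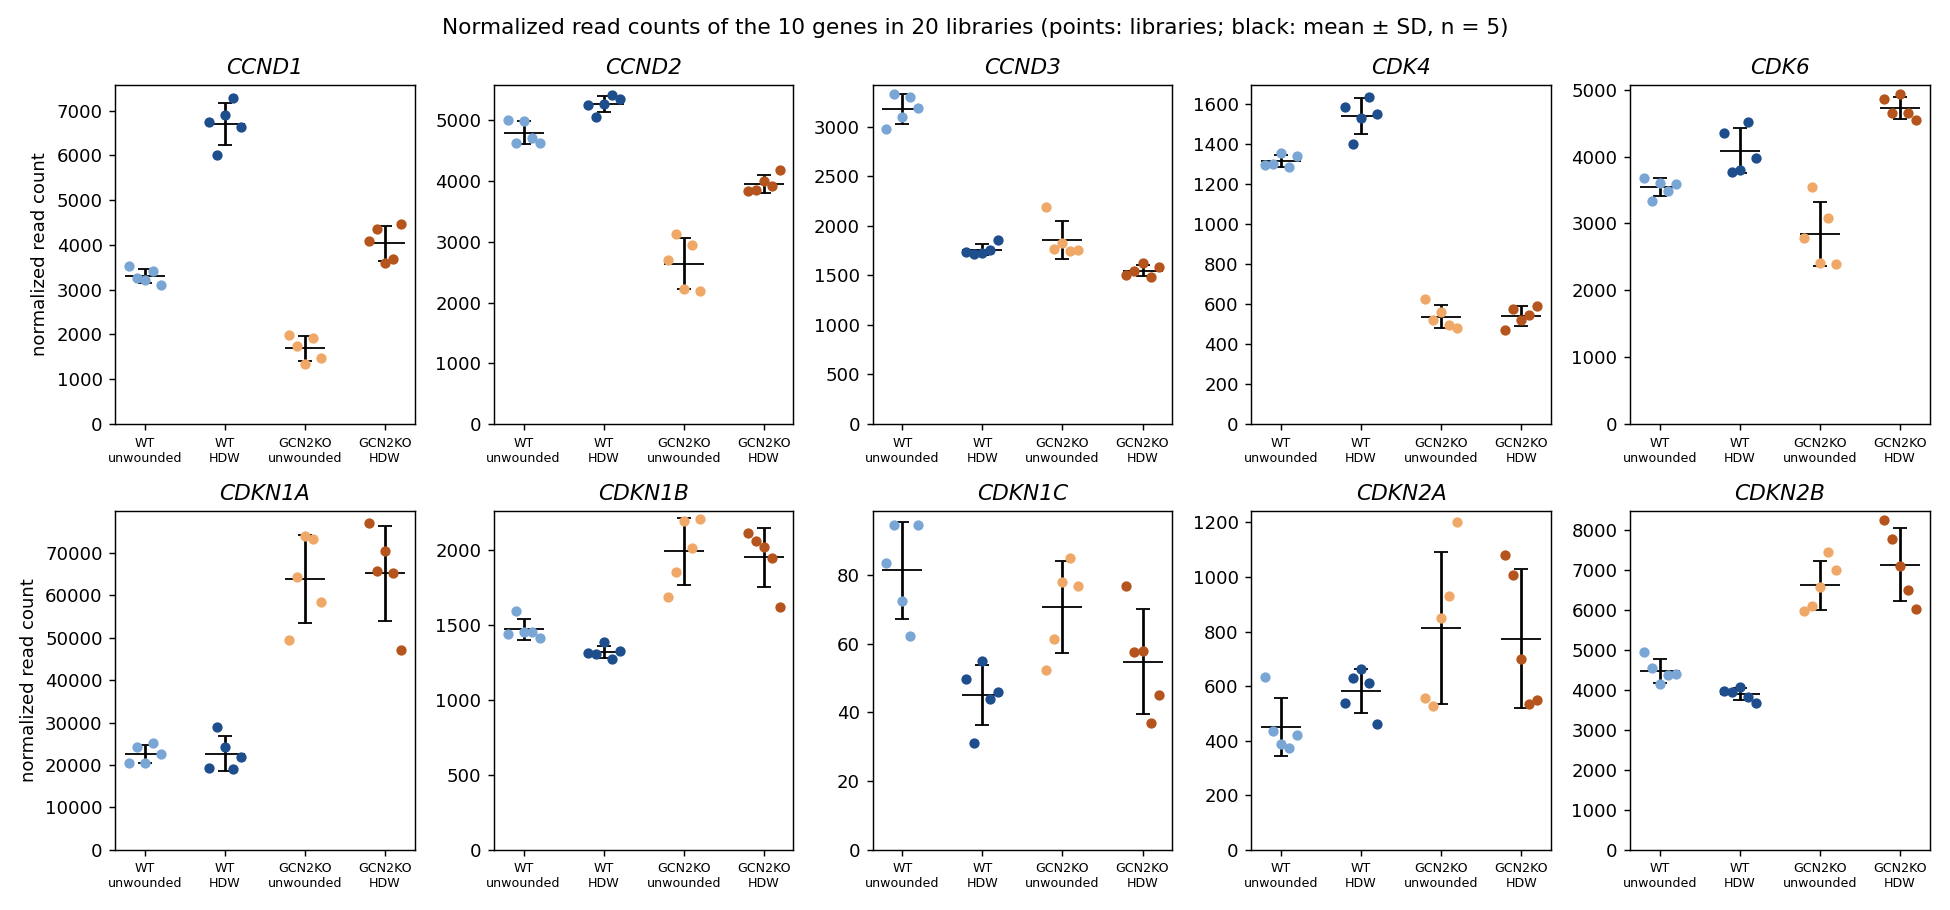
Normalized read counts (vertical axes, linear and starting at 0, one scale per gene) of the 10 genes in WT and GCN2KO cells, unwounded or 6 h after HDW. Points are libraries and black marks are the mean ± SD of 5; CDK4 lay between 469 and 624 in all GCN2KO libraries and between 1287 and 1638 in all WT libraries, whereas CCND1 rose after HDW in both genotypes.

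CCND1, cyclin D1, is the D cyclin most responsive to growth factors. Its gene lies at chr11:69641156-69654474 (GRCh38), and 10.4% of its exonic bases are shared with LTO1 on the other strand. The 5 unwounded WT libraries gave 3523, 3258, 3227, 3422 and 3105 normalized counts, and the unwounded GCN2KO libraries 1988, 1734, 1349, 1927 and 1475. Every GCN2KO library thus lay below every WT library, with replicates 3 and 5 the lowest. CCND1 fell by 0.96 ± 0.10 (SE) on the log2 scale (edgeR, adjusted p = 2.67e-07), just short of the size asked of a DE gene, and by 0.80 when replicates 3 and 5 were left out. LTO1, whose reads could mix with those of CCND1 if strand was not used in counting, gave a log2 fold change of -0.08 (adjusted p = 0.377).

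CCND2, cyclin D2, at chr12:4269771-4305353, was at 5006, 4629, 4997, 4716 and 4635 normalized counts in WT and at 2705, 3125, 2229.6, 2944 and 2188 in GCN2KO cells. The groups were apart, and replicates 3 and 5 were again the lowest of the GCN2KO group. The transcript fell by 0.86 ± 0.09 (adjusted p = 6.16e-07, edgeR) and by 0.71 without those 2 libraries. CCND3, cyclin D3, which in many epithelia stays on as cells differentiate, lies at chr6:41934934-42050357. It gave 2973, 3328, 3099, 3303 and 3184 in WT against 2188, 1769, 1825, 1742 and 1753 in GCN2KO libraries. Here replicate 1 of the GCN2KO group stood above the other four, yet below all of WT, and CCND3 fell by 0.77 ± 0.07 (adjusted p = 1.08e-07, edgeR) and by 0.73 without replicates 3 and 5.

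CDK4, the kinase that partners the D cyclins in most cells, had the largest fall of the 10. The gene lies at chr12:57747727-57756013 on the minus strand. WT unwounded libraries held 1294, 1303, 1357, 1287 and 1339 normalized counts and GCN2KO unwounded libraries 624, 521, 559, 498 and 479.6. The WT values were close together, and the gap down to the highest GCN2KO library was wider than the spread within either group. The level in GCN2KO cells was 0.408 times that in WT, a fall by 1.29 ± 0.07 on the log2 scale (edgeR, adjusted p = 4.58e-10), and by 1.26 without replicates 3 and 5. TSPAN31, on the other strand, shares 44.2% of the exonic bases of CDK4, and whether counting used strand is not stated. TSPAN31 moved the other way, with a log2 fold change of 0.45 (adjusted p = 0.00195), and its 2 highest libraries were GCN2KO replicates 3 and 5, at 2549 and 2331 against 1625 to 1749 in the other GCN2KO unwounded libraries.

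CDK6, the second D cyclin kinase, lies at chr7:92604921-92836573. Its WT libraries gave 3682, 3342, 3602, 3486 and 3591 and its GCN2KO libraries 2784, 3539, 2412, 3078 and 2387 normalized counts. These groups overlapped through GCN2KO replicate 2. CDK6 fell by 0.32 ± 0.10 (adjusted p = 0.00814, edgeR), and by 0.17 with adjusted p = 0.0455 when replicates 3 and 5 were left out, so that the size of this fall rested in part on these libraries.

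CDKN1A, p21, a target of p53 and of several stress pathways, had the largest rise. Its gene is at chr6:36676460-36687337 on the plus strand and shares no exonic base with another gene. WT unwounded libraries gave 20455, 24127, 20528, 25204 and 22469 normalized counts. GCN2KO unwounded libraries gave 49518, 64269.5, 74007, 73278 and 58329. The lowest GCN2KO library was far above the highest WT library, although the GCN2KO values were also spread more widely. The rise was 2.84-fold, a log2 fold change of 1.51 ± 0.11 (adjusted p = 4.76e-09, edgeR), and 1.48 on the log2 scale without replicates 3 and 5.

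CDKN1B, p27, which restrains CDK2 and is held high in resting cells, lies at chr12:12685498-12722369. It was at 1414 to 1593 in WT and at 1689 to 2212 in GCN2KO unwounded libraries, without overlap, a log2 fold change of 0.44 ± 0.08 (adjusted p = 8.25e-05, edgeR), or 0.34 without replicates 3 and 5. CDKN1C, p57, an imprinted gene at chr11:2883213-2885775, was rare, at 42 to 98 raw counts a library in WT and 40 to 101 in GCN2KO cells. Its log2 fold change of -0.17 did not pass (adjusted p = 0.38), with a 95% interval of -0.51 to 0.18, and was -0.24 without those libraries. Around it on 11p15, 3 of 5 tested neighbours passed as higher, among them PHLDA2 (0.86) and SLC22A18 (0.38), and 2 passed as lower, H19 (-1.27) and NAP1L4 (-0.22). Of all genes 33.4% passed as higher and 33.1% as lower.

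CDKN2B, p15INK4b, a target of TGF-β signalling in epithelia, lies at chr9:22002903-22009305. It gave 4934, 4532, 4131, 4366 and 4404 normalized counts in WT against 5978, 6096, 6559, 7455 and 6981 in GCN2KO libraries. The groups were apart, and the log2 fold change was 0.57 ± 0.07 (adjusted p = 4.98e-06, edgeR), or 0.55 without replicates 3 and 5. CDKN2A, next to it at chr9:21967752-21995301, encodes p16INK4a and, from another start, p14ARF, and counts per gene do not separate the pair. The report that the authors cite for NTERT describes, in its title, cells that also bypass a limit on life span set by p16INK4a. What this means for the CDKN2A counts was not tested. Its WT libraries gave 634, 437, 389, 373 and 422 and its GCN2KO libraries 558, 529, 849, 929 and 1201. The highest WT library was above 2 of the GCN2KO libraries, and the log2 fold change of 0.88 ± 0.20 (adjusted p = 0.000947, edgeR) was 0.63 without GCN2KO replicates 3 and 5. CDKN2B-AS1, the antisense transcript that shares 15.3% of the exonic bases of CDKN2A, was higher as well, by 0.83 on the log2 scale (adjusted p = 0.000628).

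The same genotypes were then compared 6 h after HDW. The pattern of cyclins low, CDK4 low and inhibitors high was seen again, except that CDK6 was now higher in GCN2KO cells. Of the 10 genes, 9 passed, 5 higher and 4 lower, where 71.7% of 15855 genes passed, 35.9% higher and 35.8% lower. CDK4 and CDKN1A were the 2 DE genes, beside 14.9% of all genes, 7.1% higher and 7.83% lower, and 8 of the 10 did not overlap between the genotypes, beside 57.2% of all. The median log2 fold change was 0.27 for the 10 genes and 0.00 for all genes.

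CDK4 was at 1584, 1399.8, 1530.0, 1638 and 1552 normalized counts in WT HDW and at 469, 574, 523, 547 and 591 in GCN2KO HDW libraries. No GCN2KO library came near the WT range. It fell by 1.51 ± 0.06 on the log2 scale, to 0.351 times the WT level (edgeR, adjusted p = 2.95e-10). After wounding TSPAN31 differed by a log2 fold change of 0.12 (adjusted p = 0.0335).

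CDKN1A was at 19400.3, 28861, 24267, 19043 and 21858 in WT HDW libraries. In GCN2KO HDW libraries it was at 77042, 65816, 70571, 65252 and 47190.2. GCN2KO replicate 5 was the lowest of its group and still above every WT library, and the log2 fold change was 1.52 ± 0.13, a 2.87-fold rise (adjusted p = 1.53e-07, edgeR).

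The D cyclins kept their order between the genotypes after HDW. CCND1 was at 5996 to 7275 in WT and 3599 to 4471 in GCN2KO libraries and fell by 0.73 ± 0.07 (adjusted p = 2.52e-07, edgeR). CCND2 was at 5058 to 5422 against 3829.9 to 4181 and fell by 0.41 ± 0.04 (adjusted p = 2.39e-07). CCND3 showed the smallest gap, 1719 to 1858 against 1479.6 to 1622, and fell by 0.18 ± 0.04 (adjusted p = 0.000808). In all 3 cyclins the genotypes did not overlap.

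CDK6 gave 4358, 3762, 3805, 4519 and 3985 normalized counts in WT HDW libraries and 4867, 4650.4, 4942, 4646 and 4539 in GCN2KO HDW libraries. The groups only just cleared each other, and the log2 fold change was 0.21 ± 0.05 (adjusted p = 0.00274, edgeR). Among the inhibitors, CDKN1B was at 1274 to 1387 in WT and 1620.4 to 2114 in GCN2KO cells (log2 fold change 0.56 ± 0.06, adjusted p = 1.73e-06). CDKN2B was at 3681 to 4077 against 6011 to 8247 (log2 fold change 0.87 ± 0.07, adjusted p = 1.27e-07). Both were apart between the genotypes. CDKN2A overlapped, at 462 to 664 against 533 to 1080.1, with a log2 fold change of 0.43 ± 0.18 whose adjusted p of 0.0457 rose to between 0.0512 and 0.139 when any of 6 single libraries was left out. Those were WT HDW replicates 1, 2, 4 and 5 and GCN2KO HDW replicates 1 and 2. CDKN1C did not pass (0.32, adjusted p = 0.147, 95% interval -0.09 to 0.73).

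**Figure D2:**
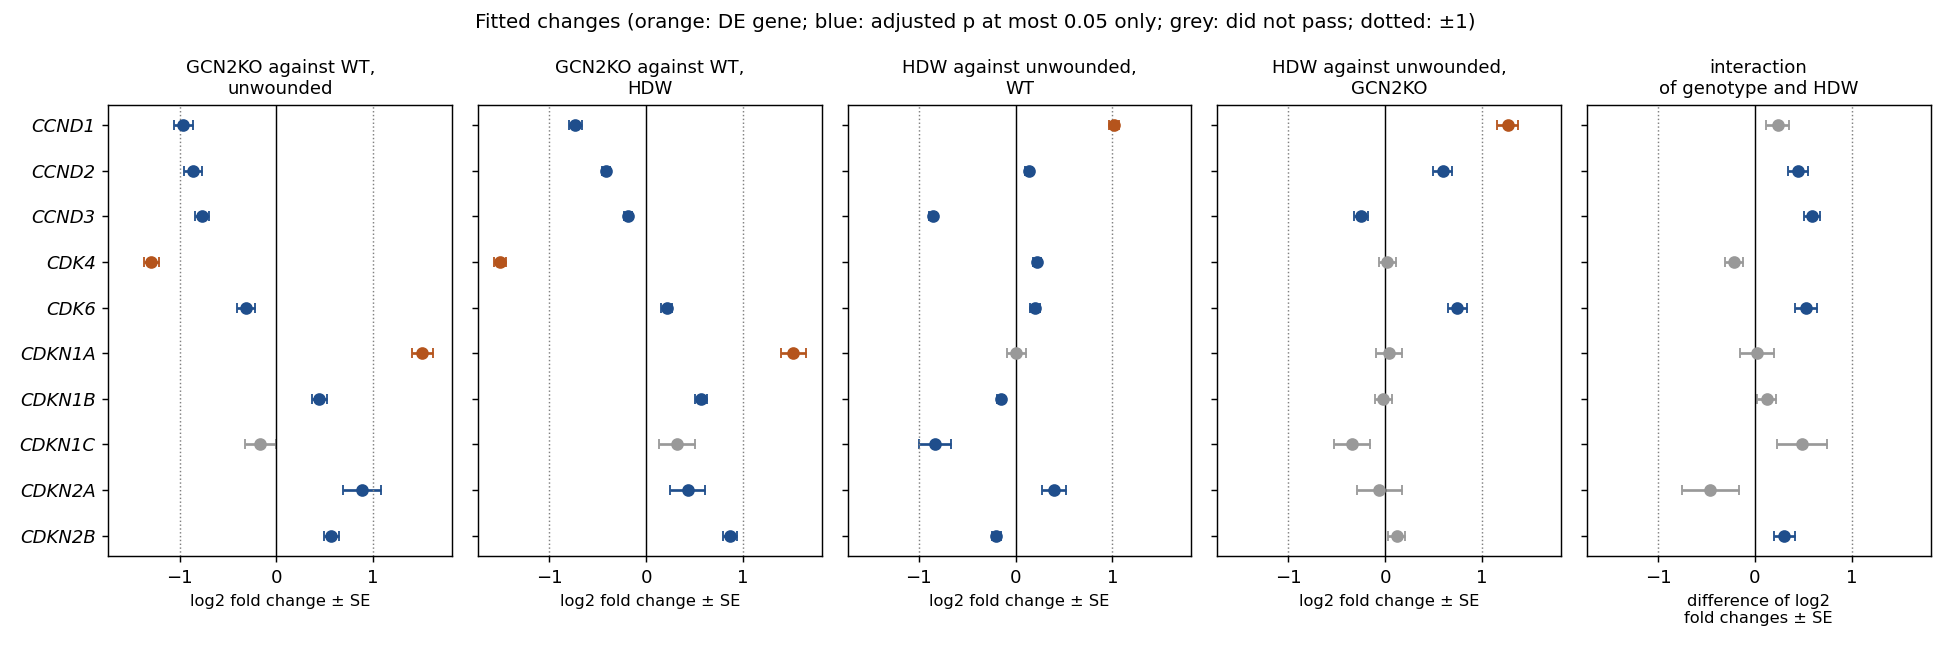
Fitted log2 fold changes ± SE of the 10 genes (rows) in the 4 comparisons and, at the right, the difference between the responses of GCN2KO and WT cells to HDW. Orange marks DE genes, blue those past the adjusted p alone and grey those that did not pass; CDK4 and CDKN1A are orange in both comparisons of genotype and CCND1 in both comparisons of wounding.

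HDW against unwounded WT cells addressed the response to wounding with GCN2 present. CCND1 rose and CCND3 fell, CDK4 and CDK6 rose slightly, and CDKN1A did not pass. By edgeR 9 of 10 genes passed, 5 higher and 4 lower, beside 51.3% of 15348 genes, 26.1% higher and 25.2% lower. One gene, CCND1, was a DE gene, beside 4.17% of all, 2.62% higher and 1.55% lower. In 8 of the 10 the unwounded and wounded libraries did not overlap, beside 36.9% of all genes. The median was 0.07 over the 10 genes and 0.00 over all.

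CCND1 went from 3105 to 3523 normalized counts unwounded to 6739, 5996, 6892, 7275 and 6632 after HDW in WT cells. The lowest wounded library was well above the highest unwounded one. The rise was 2.03-fold, a log2 fold change of 1.02 ± 0.05 (edgeR, adjusted p = 5.46e-10). Since this is at the very edge of the size asked of a DE gene, the call was lost without WT unwounded replicate 5 or WT HDW replicate 4, the lowest estimate being 0.99, and with library size alone in place of TMM (0.98). CCND3 went the opposite way, from between 2973 and 3328 to 1736, 1719, 1722, 1759.8 and 1858. The wounded values were tightly grouped and apart from the unwounded ones, and CCND3 fell by 0.86 ± 0.04 (adjusted p = 1.49e-10). CCND2 moved little, from 4629 to 5006 unwounded to 5058 to 5422 wounded (0.13 ± 0.04, adjusted p = 0.00504).

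CDK4 rose from between 1287 and 1357 to between 1399.8 and 1638 (log2 fold change 0.22 ± 0.04, adjusted p = 0.000289, edgeR) and CDK6 from between 3342 and 3682 to between 3762 and 4519 (0.20 ± 0.05, adjusted p = 0.00341). CDKN1A gave a log2 fold change of 0.01 with a 95% interval of -0.20 to 0.21 (adjusted p = 0.97), and its direction changed with the normalization and with the libraries used. CDKN1B fell by 0.15 ± 0.04 (adjusted p = 0.00335), from 1414 to 1593 down to 1274 to 1387. CDKN1C fell by 0.84 ± 0.16 (adjusted p = 0.000559), from 83.5, 94.6, 72.5, 62.2 and 94.5 to 49.7, 31.1, 54.9, 43.9 and 45.8 normalized counts. These p57 values rest on 37 to 98 reads a library and the groups were apart. In the INK4 pair CDKN2B fell by 0.20 ± 0.05 (adjusted p = 0.00196) with no overlap, while CDKN2A rose by 0.40 ± 0.13 (adjusted p = 0.017) with overlap through unwounded replicate 1. The call on CDKN2A was lost without unwounded replicate 4 (adjusted p = 0.0547).

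The same wounding in GCN2KO cells gave fewer calls, over the 10 genes as over all. The biological coefficient of variation was 0.108 in this comparison and 0.0587 for HDW in WT cells. Its part in the number of calls was not tested. By edgeR 4 of 10 passed, 3 higher (CCND1, CCND2 and CDK6) and 1 lower (CCND3), beside 22.7% of 15791 genes, 11.9% higher and 10.8% lower. CCND1 was the 1 DE gene, beside 0.671% of all genes, 0.475% higher and 0.196% lower, and in 4 of 10 genes the libraries did not overlap, beside 15.2%. The median was 0.03 for the 10 genes and 0.00 for all. Without unwounded replicates 3 and 5 the counts were again 4 passed and 1 DE gene.

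CCND1 went from 1988, 1734, 1349, 1927 and 1475 to 4089, 4353, 3599, 3688 and 4471 normalized counts in GCN2KO cells. All wounded libraries were above all unwounded ones, and above those of unwounded WT cells as well. The rise was 2.40-fold, a log2 fold change of 1.26 ± 0.11 (adjusted p = 2.12e-05, edgeR) and of 1.11 without the 2 unwounded libraries. CCND2 went to 3829.9, 3848, 3999, 3912 and 4181 from at most 3125 (0.59 ± 0.10, adjusted p = 0.00143), or 0.44 without the 2 libraries. CCND3 went from 1742 to 2188 down to 1479.6 to 1622, and its fall by 0.25 ± 0.07 (adjusted p = 0.0241) was not called without GCN2KO HDW replicate 1, 2 or 4, where the adjusted p was 0.0578 to 0.0583. Without unwounded replicates 3 and 5 CCND3 fell by 0.29 (adjusted p = 0.0346).

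CDK6 rose from between 2387 and 3539 to between 4539 and 4942 in GCN2KO cells, a log2 fold change of 0.75 ± 0.10 (adjusted p = 0.00043, edgeR) and of 0.60 without unwounded replicates 3 and 5. CDK4 gave 0.02 with a 95% interval of -0.17 to 0.21 (adjusted p = 0.876), from values of 479.6 to 624 and 469 to 591. No inhibitor passed by edgeR or DESeq2, and 0 of 5 had an unadjusted p under 0.05. The interval was -0.24 to 0.32 for CDKN1A, -0.21 to 0.17 for CDKN1B, -0.08 to 0.31 for CDKN2B and -0.73 to 0.05 for CDKN1C, and widest for CDKN2A at -0.56 to 0.43.

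The interaction of genotype and HDW over all 20 libraries set the response of GCN2KO cells against that of WT cells. The responses of CCND2, CCND3 and CDK6 differed, and each was more positive in GCN2KO than in WT cells. By edgeR 4 of 10 genes passed, 4 higher and 0 lower, beside 23.7% of 16536 genes, 11.2% higher and 12.5% lower. None was a DE gene by edgeR or DESeq2, beside 3.31% of all genes, 1.16% higher and 2.15% lower, while 5 of 10 had an unadjusted p under 0.05. For CCND3 the difference of log2 fold changes was 0.59 ± 0.08 (adjusted p = 1.19e-05), a smaller fall in GCN2KO cells. For CDK6 it was 0.53 ± 0.11 (adjusted p = 0.00147) and for CCND2 0.45 ± 0.10 (adjusted p = 0.00263), larger rises in GCN2KO cells. Without unwounded GCN2KO replicates 3 and 5 these became 0.54, 0.37 and 0.28 and all 3 still passed. CDKN2B differed by 0.30 ± 0.11 (adjusted p = 0.0401), which passed in only 7 of 20 fits that left out 1 library and not without both of those libraries (adjusted p = 0.0574). CCND1 was not shown to differ (0.23, adjusted p = 0.173, 95% interval -0.02 to 0.49), nor was CDK4 (-0.21, adjusted p = 0.113, 95% interval -0.41 to -0.01 before adjustment) or CDKN1A (0.02, adjusted p = 0.95, 95% interval -0.34 to 0.38).

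Levels were set against each other within each family as normalized counts per kb of exon. Among the D cyclins CCND1 was 37.6% ± 1.14 (SD, n = 5) of the sum in WT unwounded and 59.3% ± 1.35 in WT HDW libraries, and 35.2% ± 2.13 and 52.5% ± 2.42 in GCN2KO libraries. CCND3 went the other way, from 29.9% ± 1.60 to 12.9% ± 0.656 in WT and from 32.1% ± 3.47 to 16.7% ± 0.976 in GCN2KO cells. The 3 cyclins summed per kb to 1847 ± 40.1 unwounded and 2374 ± 116 wounded in WT, and to 1008 ± 117 and 1612 ± 90.2 in GCN2KO cells. The highest GCN2KO HDW sum of 1738 was thus below the lowest unwounded WT sum of 1785.

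CDK4 was 59.5% ± 0.908 and 59.9% ± 1.09 of the CDK4 and CDK6 level per kb in WT unwounded and HDW libraries. In GCN2KO cells it was 43.0% ± 4.88 unwounded and 31.1% ± 2.58 after HDW, so that CDK6 was the more abundant per kb of exon in each GCN2KO library. Whether reads in the 44.2% of CDK4 exonic bases shared with TSPAN31 were counted is not stated. If they were left out, CDK4 is set too low per kb and this order may not hold. The kinase sum per kb was 715 ± 16.6 and 832 ± 54.1 in WT and 405 ± 42.4 and 561 ± 8.93 in GCN2KO cells. CDKN1A was 97.5% to 98.9% of the CIP/KIP level per kb in the 4 group means, at 7529 ± 708 per kb in WT unwounded and 21322 ± 3453 per kb in GCN2KO unwounded libraries. CDKN1B was next, at 143 to 215 per kb, and CDKN1C last at 18.2 to 32.8 per kb. CDKN2B was 86.7% to 90.7% of the INK4 pair, and CDKN2A, at 116 to 209 per kb, was the smaller part in every library. Annotated exons of all transcripts were merged for these lengths, so that a gene whose long isoforms are unused is set too low.

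**Figure D3:**
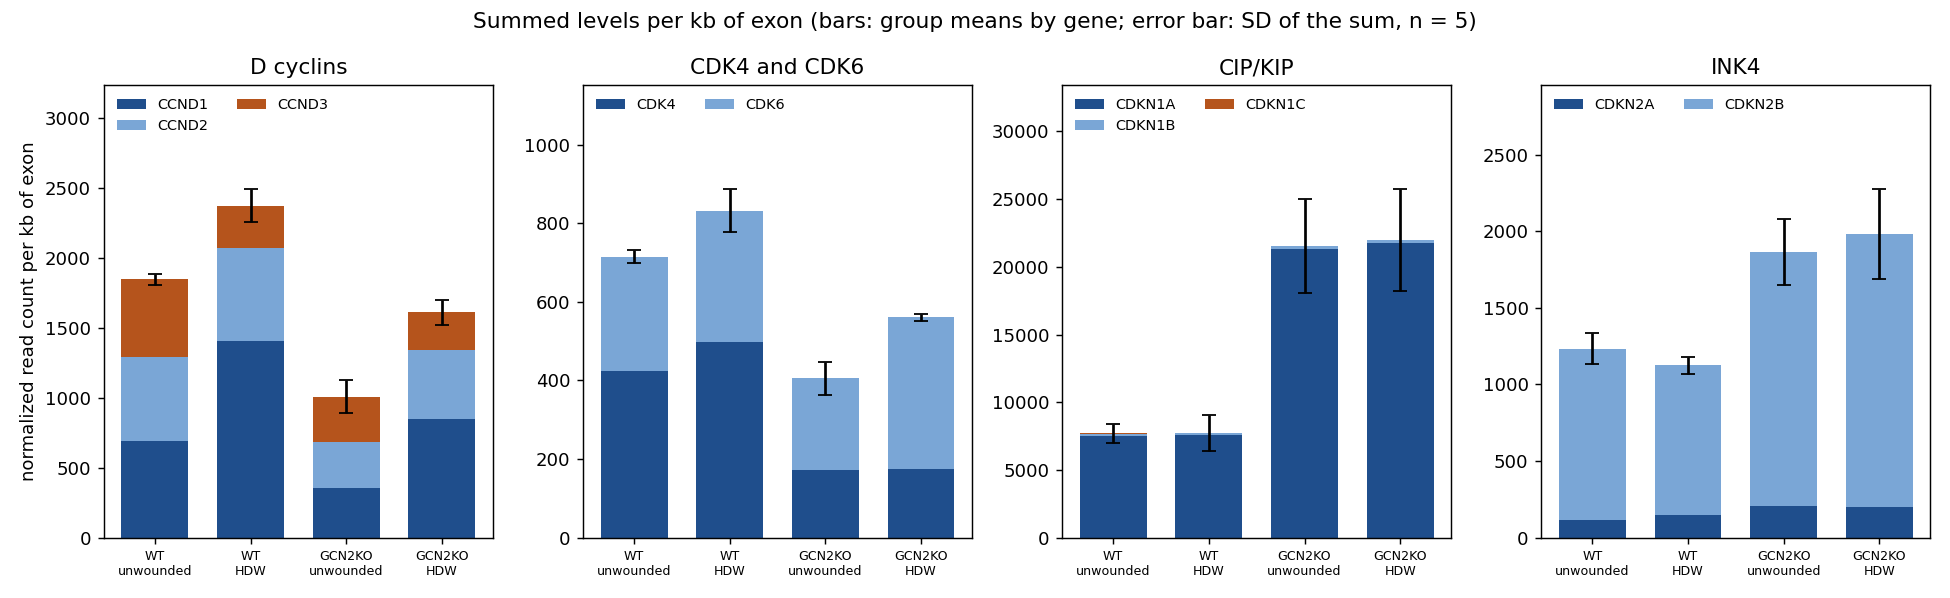
Mean normalized read counts per kb of exon (vertical axes, linear from 0) stacked by gene for the D cyclins, CDK4 and CDK6, the CIP/KIP inhibitors and the INK4 pair in the 4 groups, with error bars giving the SD of the sum over 5 libraries. CDK4 makes up 59.5% of the kinase bar in unwounded WT and 31.1% in GCN2KO HDW cells, and CDKN1A nearly all of the CIP/KIP bars.

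Position on the chromosome was looked at through the tested genes that start within 5 Mb of each gene. For GCN2KO against WT without wounding the median log2 fold change of these neighbours lay between -0.24, around CCND2, and 0.05, around CDKN2A. CDK4 had 10.9% of its 138 neighbours below it and CDKN1A 98.4% of 122. After HDW 4.90% of 143 neighbours were below CDK4. Near the INK4 locus ELAVL2 had log2 fold changes of -1.07 and -0.94 in the comparisons of genotype and MTAP, a metabolic enzyme gene, of -0.61 and -0.32. DMRTA1 was higher by 0.37 in both and CDKN2B-AS1 by 0.83 and 1.23. The median of the neighbours of CDKN2B was 0.04 and 0.14. CCND1 after HDW stood above 94.9% of 175 neighbours in WT and 99.4% of 168 in GCN2KO cells, whose medians were 0.09 and 0.05.

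**Figure D4:**
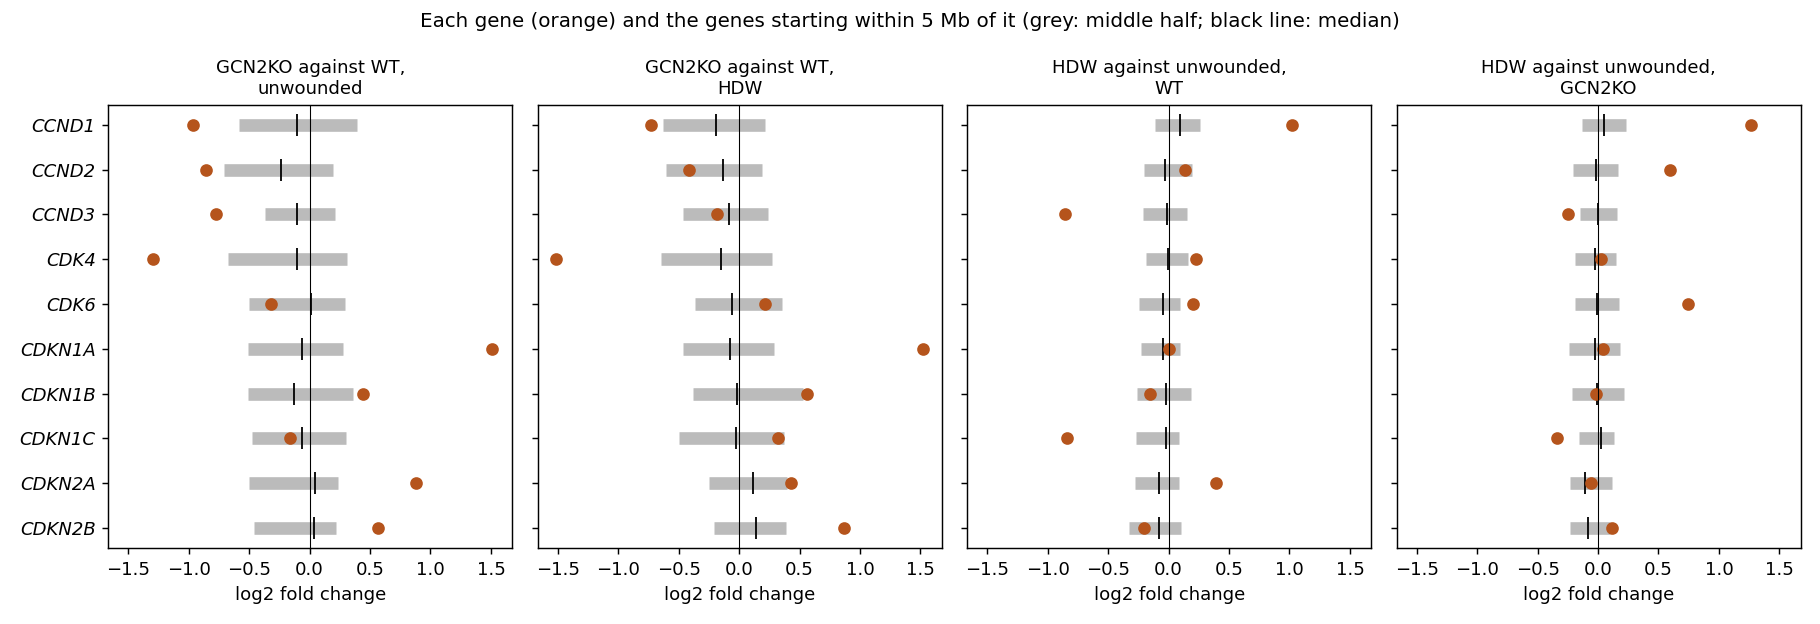
Log2 fold change (horizontal axes) of each gene (orange) and of the tested genes that start within 5 Mb of it (grey bar from lower to upper quartile, black line at the median) in the 4 comparisons. Medians of the neighbours stay between -0.24 and 0.14 in all panels. CCND1, CDK4, CDKN1A, CDKN1B, CDKN2A and CDKN2B lie outside the grey bars in both comparisons of genotype.

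Genes with the most similar pattern were taken for the 3 genes that were DE in any comparison, by the root mean square difference of 4 centred group means of log2 normalized counts among 12353 genes. For CDK4 they were FPGS, TMTC4 and NASP, at 0.02, 0.03 and 0.03. For CDKN1A they were TMPRSS11E, TUBB3 and ZNF841, at 0.03, 0.05 and 0.06. For CCND1 no gene was so close, the nearest being FST, AJAP1 and ALDH1A3 at 0.13 to 0.14.

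The rest of the pathway was read from lists of RB and E2F genes, E2F targets of S phase and others. In the RB and E2F list 2 of 13 genes passed as higher and 8 as lower in unwounded GCN2KO cells, and 1 and 9 after HDW, with list medians of -0.51 and -0.57, where 33.4% and 33.1%, then 35.9% and 35.8%, of all genes passed as higher and lower. E2F7 rose by 2.10 and 1.00 in these comparisons. E2F1 fell, with log2 fold changes of -1.63 and -3.39, as did E2F8, with -1.79 and -1.74, and E2F3, with -1.17 and -0.98. RBL2, which encodes the pocket protein p130, fell by 0.79 in unwounded GCN2KO cells. HDW in WT cells raised 6 of 13 and lowered 3, beside 26.1% and 25.2% of all genes. E2F1, up by 2.39, and E2F7, up by 1.20, were the 2 DE genes of the list there, and RBL1 (p107) rose by 0.89. In GCN2KO cells 2 of 12 rose and 0 fell by edgeR or DESeq2, near the 11.9% and 10.8% of all genes, and 4 higher and 0 lower genes had an unadjusted p under 0.05. The interaction passed as higher for 2 of 13 and as lower for 4, beside 11.2% and 12.5% of all genes. Among those lower were E2F7 (-1.09) and E2F1 (-1.76, edgeR, adjusted p = 0.00641).

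E2F targets of S phase gave different counts for HDW in the 2 genotypes. HDW in WT cells raised 10 of 14 and lowered 1, where 26.1% and 25.2% of all genes passed, with a median of 0.87. CDC6, a loader of the MCM helicase, rose by 2.66, and MCM6 and MCM2, subunits of that helicase, by 2.18 and 1.77 (adjusted p = 6.34e-11, 1.99e-08 and 4.96e-08, edgeR). In GCN2KO cells 0 of 14 rose and 2 fell after HDW, among them PCNA by 0.26, with a median of 0.00, where 11.9% and 10.8% of all genes rose and fell. By DESeq2 0 rose and 3 fell there, and 1 higher and 4 lower genes had an unadjusted p under 0.05. The interaction passed for 9 of 14, beside 12.5% of all genes lower and 11.2% higher. In all 9 the response to HDW was less positive in GCN2KO than in WT cells, led by CDC6 (-3.08), MCM6 (-1.94) and MCM2 (-1.55). Between the genotypes 10 of 14 were lower and 3 higher without wounding, beside 33.1% and 33.4% of all genes. After HDW 11 were lower and 1 higher, beside 35.8% and 35.9%. CDC6 was among those higher in unwounded GCN2KO cells, by 2.99, while CDT1, which loads MCM with it, fell by 3.08. After HDW CDC6 was not shown to differ between the genotypes (-0.09, edgeR, adjusted p = 0.569).

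Of the mitotic genes 7 of 9 passed as lower and 1 as higher without wounding, and 9 of 10 lower and 1 higher after HDW, with medians of -1.49 and -1.88, beside 33.1% lower and 33.4% higher, then 35.8% and 35.9%, of all genes. TOP2A, the topoisomerase of dividing cells, had log2 fold changes of -2.18 and -2.11, MKI67, a proliferation marker, of -2.40 and -2.24, and CDK1 of -1.93 and -1.99. By edgeR HDW itself changed 0 of 10 of these in WT cells and 0 of 9 in GCN2KO cells, beside 51.3% and 22.7% of all genes. In each genotype 1 gene had an unadjusted p under 0.05, while DESeq2 called 1 in WT and 0 in GCN2KO cells. Of the cyclin E, CDK2 and CAK list, 2 of 7 passed as higher and 2 as lower in unwounded GCN2KO cells, near the shares of all genes. CCNH, the cyclin of the CDK-activating kinase, rose by 1.13, and CDK2 fell by 0.44.

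Targets of p53 were counted beside CDKN1A. In GCN2KO cells 9 of 20 passed as higher and 5 as lower without wounding and 12 and 3 after HDW, where about as many of all genes passed in each direction (33.4% and 33.1%, then 35.9% and 35.8%). TIGAR rose by 1.05 and 0.80, RRM2B, a ribonucleotide reductase subunit, by 1.01 and 1.18, and SESN2, a stress-induced sestrin that is also a target of ATF4, by 1.09 in unwounded cells. BTG2 fell by 0.89 in unwounded GCN2KO cells. HDW in WT cells raised 4 and lowered 11 of the 20, beside 26.1% and 25.2% of all genes. Among those lowered were TP53INP1 (by 0.66) and DDB2 (by 0.63). In GCN2KO cells 3 rose and 4 fell after HDW, beside 11.9% and 10.8% of all genes. The remaining INK4 genes were both higher in unwounded GCN2KO cells, CDKN2C (p18INK4c) by 1.32 and CDKN2D (p19INK4d) by 0.65. After HDW CDKN2D was higher by 1.08 and CDKN2C gave 0.27 (adjusted p = 0.0774).

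In a list of the ubiquitin machinery that degrades cyclins and inhibitors, 1 of 12 passed as higher and 6 as lower in unwounded GCN2KO cells, and 1 and 8 after HDW, where 33.4% and 33.1%, then 35.9% and 35.8%, of all genes did. DDB1, an adaptor of CUL4 ligases, had log2 fold changes of -0.98 and -0.44, and FBXO31, which targets cyclin D1, of -0.90 and -0.52. SKP2, which targets p27, fell by 0.49 in unwounded cells. DTL, the CUL4 receptor for CDT1 and p21, rose by 2.91 after HDW in WT cells and was lower by 4.17 in GCN2KO than in WT cells after HDW.

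**Figure D5:**
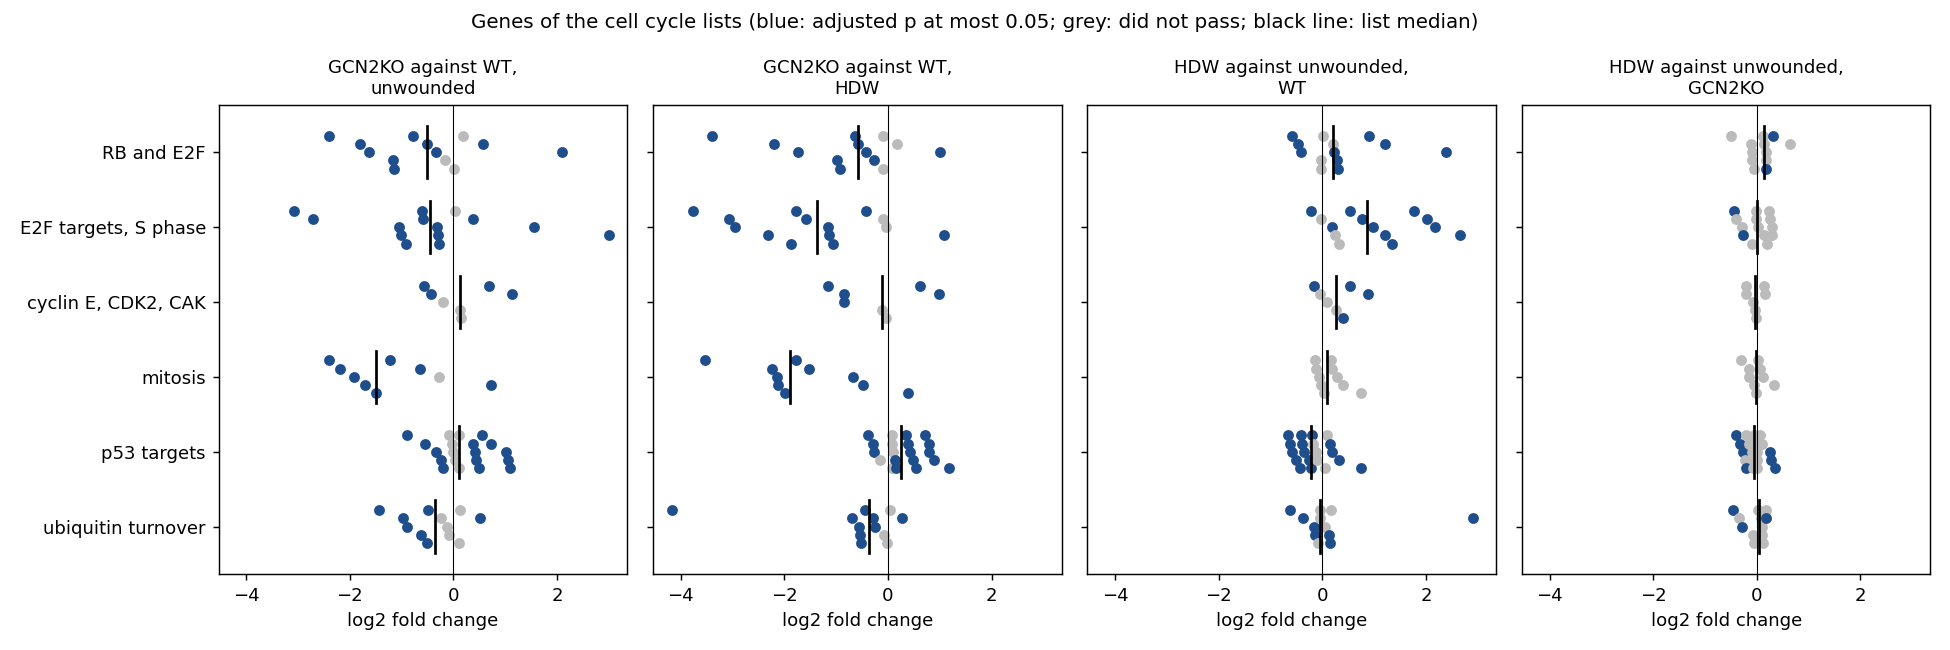
Log2 fold changes (horizontal axes) of single genes in 6 cell cycle lists (rows) for the 4 comparisons, blue where the adjusted p was at most 0.05 and grey where not, with the list median as a black line. The median of the E2F targets is 0.87 for wounding of WT and 0.00 for wounding of GCN2KO cells, and that of the mitotic genes is -1.49 and -1.88 in the comparisons of genotype.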

How the data were processed

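RNA from 20 cultures was sequenced as 150-base read pairs on an Illumina HiSeq. The authors trimmed reads with Trimmomatic, aligned them to GRCh38 with STAR and assigned them to genes with featureCounts. The authors deposited raw counts without a filter, and ran their own comparisons in DESeq2. The annotation release, the use of strand and the handling of overlapping genes are not given in the sources used here. Of 57500 gene identifiers 56410 matched GENCODE release 44, which gave symbols, positions and exon lengths.

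The tests were those of edgeR 4.0.16 under R 4.3.3 (glmQLFit, glmQLFTest, TMM, filterByExpr with a minimum count of 10 and a minimum total of 15) over all genes, with Benjamini-Hochberg adjustment. Each comparison used the 10 libraries of its groups, and the interaction all 20. A DE gene differed by 1 or more on the log2 scale with an adjusted p of at most 0.05. The SE is the size of the log2 fold change over the square root of F. Comparisons share control libraries and are not independent. The p-values measure the spread between the 5 samples of a group, which may be technical.

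Genes named are the 10, EIF2AK4, genes that share exonic bases with the 10, genes of each list and 3 genes of most similar pattern (mean of at least 50 counts, pseudocount 0.5). The plan was to name 2 to 4 of each list by smallest adjusted p. It was not kept throughout. Some genes further down their list are named, such as KRT1, and some near the top are not, such as TFDP2. Members and lists were chosen with earlier results of these data known. Alternatives were a replicate block, DESeq2 1.42.0, its size factors, no filter, library size alone, a filter at a mean of 50 counts, one fit of the 20 samples, thinned counts, glmTreat and each library left out. The fits for genotype without wounding and for the interaction were tested on simulated data, with planted changes above the limit for a DE gene. The other fits, and smaller changes, were not tested in this way. Tables and figures used Python 3.11 and matplotlib 3.10.9.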

Additional observations from a re-analysis of the deposited data

Results flagged for a closer look

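Within a group of 5, a library was marked when its gap to the nearest other was a larger share of the whole range than Dixon's 95% limit, which chance gives in about 1 group in 20, and 3 of 40 groups were marked. CCND3 in GCN2KO unwounded replicate 1 was at 2188, above the others at 1742 to 1825. CDKN1B in WT unwounded replicate 2 was at 1593, above the others at 1414 to 1454. CDKN2A in WT unwounded replicate 1, the library with the fewest counts, was at 634, above the others at 373 to 437, and whether its depth has a part in this was not tested. By the interaction test 4 genes responded to HDW differently in GCN2KO and WT cells, with differences of log2 fold changes, GCN2KO minus WT, of 0.45 for CCND2, 0.59 for CCND3, 0.53 for CDK6 and 0.30 for CDKN2B (edgeR, adjusted p = 0.00263, 1.19e-05, 0.00147 and 0.0401).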

How the results depend on the processing

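With no limit on the fold change the DE genes were 9, 9, 9, 4 and 4 of 10 in the comparisons of genotype unwounded and after HDW, of HDW in WT and in GCN2KO cells and in the interaction, and under glmTreat 0 for HDW in either genotype. With library size alone 0 were DE for HDW in WT. Leaving out 1 library gave 2 to 3, 2 to 2, 0 to 1, 1 to 1 and 0 to 0. CDKN1A for HDW in WT turned from 0.01 to -0.032 with library size alone, -0.0014 with the stricter filter, -0.0067 with the replicate block and -0.00051 with thinned counts, and ranged from -0.098 to 0.063 with 1 library left out. Further ranges that crossed zero were -0.041 to 0.13 for CDKN1A, -0.017 to 0.082 for CDK4, -0.075 to 0.039 for CDKN1B and -0.21 to 0.12 for CDKN2A with HDW in GCN2KO cells, and -0.059 to 0.12 for CDKN1A in the interaction, and without unwounded GCN2KO replicates 3 and 5 CDK4, CDKN1B and CDKN2A turned to -0.012, 0.081 and 0.21. The replicate block left the DE counts of the 10 genes as they were. It ended the calls on CCND3 for HDW in GCN2KO cells (adjusted p = 0.0695) and on CDKN2B in the interaction (0.0584). Numbers are not stated to pair samples, and the deviations of same-numbered libraries from their group means correlated at -0.281 to 0.106. All 20 samples in one fit lost CCND2, CDKN1B and CDKN2A for HDW in WT (adjusted p = 0.149, 0.0998 and 0.163) and CDKN2A for genotype after HDW (0.0676), as did DESeq2 for the last (0.0945). The cause was not tested. Over all genes, DE genes numbered 2521, 2368, 640, 106 and 547, but 3920, 3681, 998, 199 and 580 with no filter and 1630, 1328, 371, 40 and 280 with a mean of at least 50 counts. CDKN1C had the fewest reads of the 10, 22 to 101 a library.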
